A study of Rattus norvegicus with 6 samples.

Results

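The genes of sterol and fatty acid synthesis, with the regulators of the SREBP transcription factors that control them, were examined in RBL-2H3 cells with and without dihydrocoumarin (DHC). The members were a fixed list of 30 gene symbols, of which 29 had a row among the 18286 genes of the deposited expression table. The remaining symbol, Hsd17b7, a ketoreductase of the late sterol steps, had no row and no value here. RBL-2H3 is a basophilic leukemia line of the rat that carries the high-affinity IgE receptor and stands in for mast cells. It is 1 tumor line, grown in medium with fetal bovine serum, which supplies lipoprotein cholesterol. The 3 control libraries came from cells whose treatment is given as none. The 3 DHC libraries came from cells treated with DHC, a lactone of the coumarin family, at a dose and for a time that the labels do not give. Both groups carry the same protocol text, a 12 h sensitization with 50 ng/ml of anti-DNP IgE and 4 h of DNP-HSA, the antigen, at 100 ng/ml. Whether control cells received both is not said apart from that text. The series asks whether DHC inhibits mast cell activation through IgE.

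Cells make cholesterol from acetyl-CoA through the mevalonate pathway, which builds isoprenoid units, joins them to squalene and closes squalene into lanosterol before a chain of late enzymes trims lanosterol to cholesterol. The genes of both sterol and fatty acid synthesis are targets of the SREBPs, membrane-bound transcription factors of the endoplasmic reticulum. When membrane sterol is low, the escort protein SCAP carries an SREBP to the Golgi for cleavage, and its freed domain enters the nucleus. When sterol is ample, INSIG proteins hold SCAP back, so that target genes, Insig1 among them, are transcribed less. The members were therefore split by role into 8 early steps up to the isoprenoid diphosphates, 11 steps from squalene to cholesterol, 6 genes of SREBP control and sterol transport, and 5 genes of fatty acid synthesis.

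The libraries held between 29084976 and 34170922 reads assigned to genes, with no detectable difference in total between the groups (exact two-sided permutation p = 0.7, where 3 against 3 can reach no lower than 0.1). Levels are given in RPKM, reads scaled to exon length and to the library's assigned total, and 3 reads in a library correspond to 0.0878 to 0.103 RPM, a limit set by counting alone. The labels do not call the 3 libraries of a group separate cultures. The p-values therefore rest on library-to-library spread, possibly technical. A bulk value cannot tell fewer expressing cells from less RNA per cell. The labels call the material blood corpuscles of peripheral blood. Of 12 mast cell and basophil markers 9 had a row, and Tpsb2 and Cma1 were below 1 RPKM in every library. The markers' summed level was 974 to 999.9 RPKM in control and 690.5 to 716 RPKM in DHC libraries. Gata2 had a mean of 345 RPKM in control and 69.9 RPKM with DHC, and Kit 115 and 64.4 RPKM. Hdc was at 47.3 and 38.2 RPKM and Fcer1g at 31.8 and 30.7 RPKM. Ms4a2 (321 and 369 RPKM), Fcer1a (107 and 110 RPKM) and Cpa3 (17.5 and 20.7 RPKM) had higher means with DHC. The T cell list summed to 31.8 to 37.5 RPKM in control and 40.6 to 43.8 RPKM in DHC libraries, nearly all of it from Cd3e, with Cd3d, Cd3g and Cd8a below 1 RPKM everywhere. The summed levels of the B cell, macrophage, fibroblast, epithelial and endothelial lists overlapped between the groups, except the endothelial list (Tek), which was 9.48 to 10.7 RPKM in control and 8.03 to 8.39 RPKM with DHC. The part of these differences in the results was not tested.

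With DHC, 16 of the 29 members rose and 0 fell at an adjusted p below 0.05 (limma on log2(RPKM + 1), Benjamini-Hochberg adjustment over all 10667 genes tested). All 29 had passed the filter of a mean of 1 RPKM over the 6 libraries. Among all genes tested, 18.4% rose, 16.1% fell and 34.5% did either. The number of members lower at an unadjusted p under 0.05 was also 0. With limma-voom on recovered reads 16 rose and 0 fell, against 14.7% and 22.0% of all genes. In 18 of the 29 members every DHC value lay above every control value, against 28.1% of all genes tested, and in 0 did every DHC value lie below, against 21.6%. The members' median difference was 0.31 on the log2(RPKM + 1) scale, against a median of 0.05 for all genes tested. Most rises were small. Insig1, the feedback inhibitor, rose 2.21-fold, Acat2 1.95-fold and Sc5d 1.84-fold, Fasn 1.71-fold and Acaca 1.505-fold, and the other risen members between 1.20-fold (Scd) and 1.36-fold (Hmgcs1 and Msmo1). By role, 4 of 8 early steps, 6 of 10 tested steps from squalene to cholesterol, 2 of 6 control and transport genes and 4 of 5 fatty acid synthesis genes rose. When libraries were scaled by trimmed means, which moved the median of all genes to −0.0045, 12 members rose, against 12.0% of all genes, and 0 fell, against 19.8%. The calls of Pmvk, Lss, Acly and Scd ended there.

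**Figure D1:**
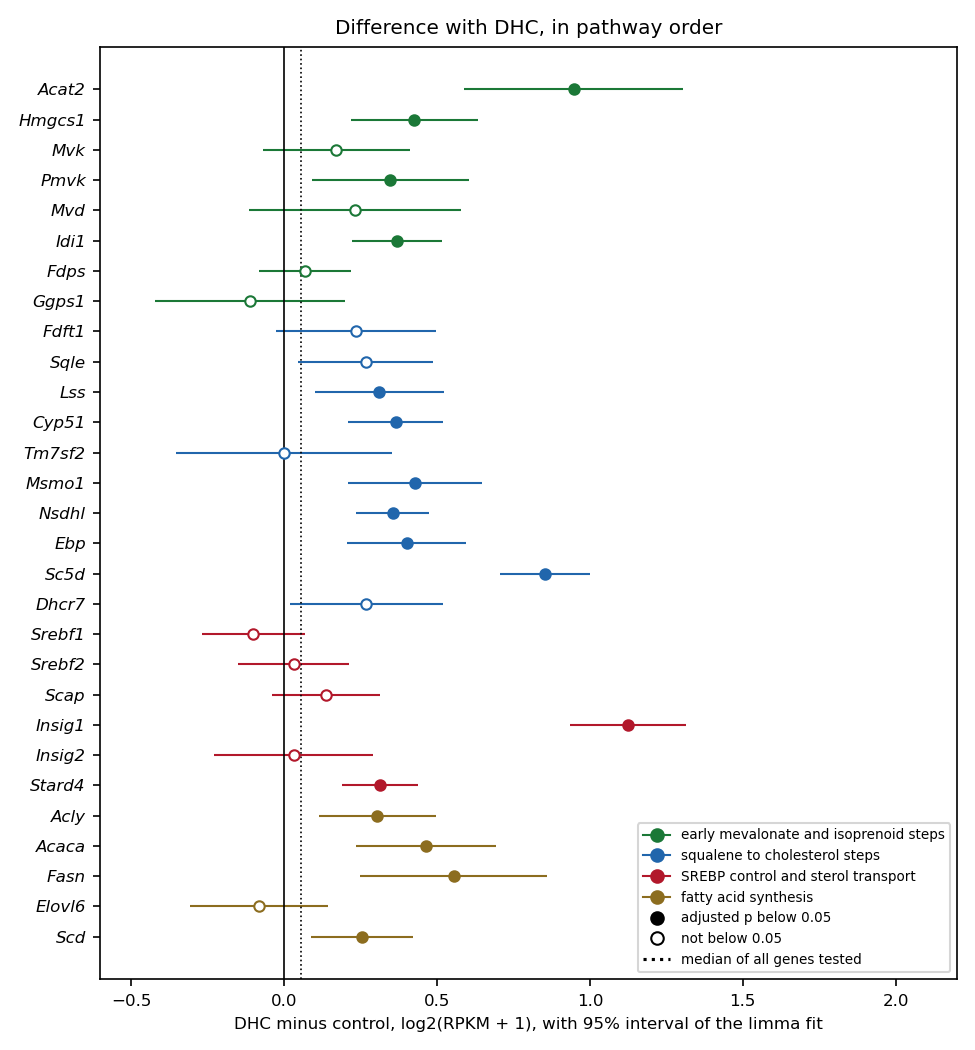
Difference between DHC and control on the log2(RPKM + 1) scale for each of the 29 members in pathway order (x axis), with the 95% interval of the limma fit over 3 libraries per group; filled points passed an adjusted p of 0.05 and the dotted line is the median of all genes tested. The 16 filled points all lie to the right, led by Insig1 at 1.12, Acat2 at 0.95 and Sc5d at 0.85.

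Promoters are described because 16 of the members rose and these genes are known to share SREBP control. RefSeq promoter sequences on the build GRCr8 were matched by symbol for 23 of the 30 members, Hsd17b7 included, and the 250 bases before each start were searched on both strands. CCAAT, the letters bound by NF-Y, a known partner of SREBP, occurred in 18 of 23 (78.3%), against 37.6% of 7173 tested genes with a promoter and 34.0% of all 33469 promoters. At least 2 CCAAT matches occurred in 9 of 23, against 14.7% of the tested genes. CCAAT occurred in 9 of the 12 members that rose and had a promoter entry, and in 8 of the 10 measured members that did not pass. TCACNCCAC, a form of the sterol regulatory element and the only motif planned, occurred in 0 of 23 and in 1.05% of the tested genes. CCAAT and the other motifs were chosen after values were seen, so their shares are description and not a planned test. CACGTG, an E-box, occurred in Sc5d, Scap and Insig1, 3 of 23, against 8.82% of the tested genes. GGGCGG, the GC box, occurred in 18 of 23, against 62.1%. No match of one of these motifs overlapped a match of another in the members. A match is a description of letters, not a site in use, and no match says only that these letters are not in this window.

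These windows follow, each 5′ to 3′ along the gene, with CCAAT (read as ATTGG on the other strand) and CACGTG in capitals. Insig1 (chr4:8057770-8058019, minus strand) had the largest rise. Nsdhl (chrX:155817110-155817359, plus strand), Idi1 (chr17:66547525-66547774, minus strand) and Ebp (chrX:16971212-16971461, plus strand) were the 3 risen members of lowest p with at least 2 CCAAT matches, and Mvk (chr12:47819504-47819753, minus strand) held 5 such matches without passing the test. The deposited table, on the build Rnor_6.0, lists Insig1 on the plus strand.
Insig1: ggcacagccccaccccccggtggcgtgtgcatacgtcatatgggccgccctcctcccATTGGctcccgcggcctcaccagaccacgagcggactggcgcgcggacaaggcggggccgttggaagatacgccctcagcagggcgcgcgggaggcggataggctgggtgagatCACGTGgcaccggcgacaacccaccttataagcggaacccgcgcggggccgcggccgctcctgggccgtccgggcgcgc 
Nsdhl: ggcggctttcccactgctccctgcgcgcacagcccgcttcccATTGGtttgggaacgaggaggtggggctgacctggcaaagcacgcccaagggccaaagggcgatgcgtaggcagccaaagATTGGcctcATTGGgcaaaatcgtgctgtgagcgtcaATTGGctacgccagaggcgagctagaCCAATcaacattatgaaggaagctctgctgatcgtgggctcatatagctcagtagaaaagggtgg 
Idi1: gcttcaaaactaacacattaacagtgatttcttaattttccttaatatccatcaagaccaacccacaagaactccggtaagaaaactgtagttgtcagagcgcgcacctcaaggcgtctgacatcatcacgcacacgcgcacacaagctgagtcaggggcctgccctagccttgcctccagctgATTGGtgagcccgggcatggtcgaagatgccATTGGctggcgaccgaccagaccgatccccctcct 
Ebp: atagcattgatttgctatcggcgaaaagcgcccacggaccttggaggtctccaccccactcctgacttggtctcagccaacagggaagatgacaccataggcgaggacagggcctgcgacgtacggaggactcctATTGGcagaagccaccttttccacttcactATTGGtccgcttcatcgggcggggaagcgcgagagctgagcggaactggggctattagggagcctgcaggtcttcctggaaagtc 
Mvk: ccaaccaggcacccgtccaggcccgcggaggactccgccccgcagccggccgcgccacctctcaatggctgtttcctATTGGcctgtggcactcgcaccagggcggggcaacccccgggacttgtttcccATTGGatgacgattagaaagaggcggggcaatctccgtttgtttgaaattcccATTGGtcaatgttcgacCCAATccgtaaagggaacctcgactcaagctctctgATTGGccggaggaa
Nsdhl and Mvk thus carried the same number of CCAAT matches, and Insig1 carried 1 CCAAT and 1 CACGTG.

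Levels spanned a wide range across the pathway. In control cells Acly, ATP-citrate lyase, stood highest at 291 ± 25.5 RPKM (SD, n = 3), followed by Fdps at 227 ± 19.5, Cyp51 at 141 ± 7.81 and Mvd at 127 ± 22.8 RPKM. Cyp51 and Mvd did not differ beyond their spread. Tm7sf2 at 1.42 ± 0.251, Ggps1 at 1.99 ± 0.452, Fasn at 2.00 ± 0.261 and Acaca at 2.96 ± 0.359 RPKM were the lowest. The range of 1 SD around Ggps1 overlapped those around both Tm7sf2 and Fasn. The fatty acid synthesis enzymes Fasn and Acaca were thus far below Acly, which supplies their substrate. Tm7sf2 rested on 69 to 118 reads per library, the fewest of any member, and Acly on 34599 to 49457.

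**Figure D2:**
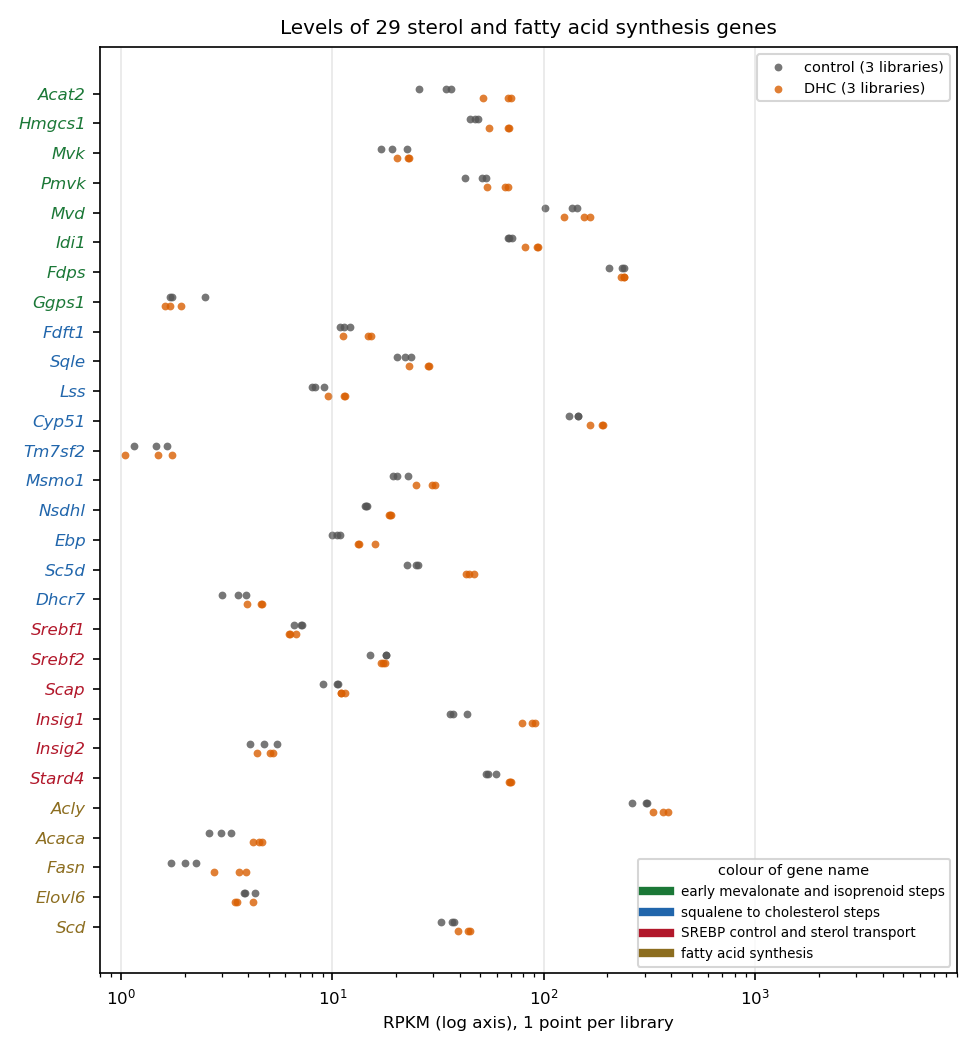
RPKM (log axis) of the 29 members, 1 point per library, control in grey above and DHC in orange below each line; gene names are coloured by role. Levels run from Tm7sf2, near 1.42 RPKM in control, to Acly, near 291 RPKM, and for 18 members the 3 DHC points lie to the right of all 3 control points.

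Among the early steps the first enzymes rose most. Acat2, the cytosolic thiolase that joins acetyl-CoA units (Rnor_6.0 chromosome 1, 47972399 to 47992653), was at 25.7, 36.5 and 34.5 RPKM in control libraries 1, 2 and 3 and at 51.5, 69.6 and 67.9 RPKM in DHC libraries 1, 2 and 3. The groups did not overlap, and library 1 was the lowest in each. The difference was 0.95 ± 0.15 on the log2(RPKM + 1) scale (SE, limma adjusted p = 0.00304). Hmgcs1, which makes HMG-CoA (chromosome 2, 52431601 to 52445055), was at 44.8, 47.2 and 49.1 RPKM in control and 54.9, 67.8 and 68.8 RPKM in DHC libraries, again without overlap (0.43 ± 0.09, adjusted p = 0.00924). Idi1, the isomerase of the isoprenoid units (chromosome 17, 57976268 to 57984036), was at 68.5, 67.3 and 71.0 RPKM against 81.5, 93.1 and 93.9 RPKM (0.37 ± 0.06, adjusted p = 0.00375). Of its 2811 exon bases 100 are shared with Wdr37 on the other strand, and whether counting used strand is not given in the sources used here.

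The middle of this stretch was less uniform. Pmvk, phosphomevalonate kinase, was at 42.4, 53.4 and 51.2 RPKM in control and 54.1, 67.8 and 65.9 RPKM in DHC libraries (0.35 ± 0.11, adjusted p = 0.0438). Its lowest DHC value lay just above its highest control value. The call ended without control replicate 1 (adjusted p = 0.104) or 3 (0.0674) and without DHC replicate 2 (0.138) or 3 (0.120). Mvk, mevalonate kinase, was at 17.0, 22.6 and 19.1 RPKM against 20.3, 22.9 and 23.1 RPKM, and the groups overlapped (adjusted p = 0.234, 95% interval of the difference −0.07 to 0.41). Mvd, mevalonate diphosphate decarboxylase, ranged from 101 to 143 RPKM in control and from 125 to 166 RPKM with DHC (adjusted p = 0.26, interval −0.11 to 0.58). In both groups its library 1 was well below the others, and without both libraries numbered 1 it passed (adjusted p = 0.0328).

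At the branch of the pathway the members Fdps and Ggps1, which make longer isoprenoids, did not pass the test. Pdss1 and Nus1, genes of the isoprenoid branches outside the list of members, rose. Fdps, farnesyl diphosphate synthase, was at 204, 240.5 and 235 RPKM in control and 232, 239.8 and 239 RPKM in DHC libraries. All values but that of control library 1 lay within a narrow band (difference 0.07, interval −0.08 to 0.22, adjusted p = 0.44). Ggps1, which makes the geranylgeranyl diphosphate used to anchor small GTPases, was at 2.51, 1.74 and 1.71 RPKM against 1.92, 1.71 and 1.62 RPKM (−0.11, interval −0.42 to 0.20, adjusted p = 0.55). Its groups overlapped, and control library 1 was the highest of the 6. The sign of the difference reversed without control replicate 1 for both Fdps (−0.0043) and Ggps1 (0.0099).

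From squalene onward, Fdft1 and Sqle, which make squalene and its epoxide, did not pass with all libraries and group as the only term. Fdft1 was at 10.9, 11.3 and 12.1 RPKM in control and 11.2, 14.8 and 15.2 RPKM in DHC libraries (0.23, interval −0.03 to 0.50, adjusted p = 0.142). Its DHC library 1 lay within the control range, and it passed without DHC replicate 1 (adjusted p = 0.0108). Sqle, squalene epoxidase, was at 20.3, 21.9 and 23.5 RPKM against 23.0, 28.2 and 28.7 RPKM (0.27, interval 0.05 to 0.49, adjusted p = 0.064). It too overlapped only through DHC library 1 and passed without DHC replicate 1 (0.012). With all libraries and a replicate block Sqle also passed (limma adjusted p = 0.0129). Lss, lanosterol synthase, was at 8.31, 7.98 and 9.17 RPKM against 9.53, 11.4 and 11.5 RPKM (0.31 ± 0.09, adjusted p = 0.0321). The call for Lss ended without control replicate 1 (0.0761) or 2 (0.0995) and without DHC replicate 2 (0.108) or 3 (0.0991).

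Of the 7 tested enzymes that trim lanosterol 5 rose. Cyp51, lanosterol demethylase (chromosome 4, 27175243 to 27194018), was at 132, 145 and 145 RPKM in control and 166, 190.1 and 189 RPKM in DHC libraries (0.36 ± 0.07, adjusted p = 0.0051). Msmo1, the oxidase of the sterol methyl groups, was at 20.2, 19.4 and 22.7 RPKM against 24.8, 30.5 and 29.7 RPKM (0.43 ± 0.09, adjusted p = 0.0111). Nsdhl, the dehydrogenase that acts with it (chromosome X, 152933069 to 152964390), was at 14.7, 14.3 and 14.4 RPKM against 18.6, 19.0 and 18.7 RPKM. Its libraries barely differed within a group, and its rise of 1.30-fold had a lower p than that of Msmo1, which rose 1.36-fold (Nsdhl 0.36 ± 0.05, adjusted p = 0.00177). Ebp, the sterol isomerase, was at 9.94, 10.5 and 10.9 RPKM against 13.2, 13.4 and 15.9 RPKM (0.40 ± 0.08, adjusted p = 0.00878). Sc5d, the desaturase that follows it (chromosome 8, 46525400 to 46537050), was at 25.4, 22.5 and 24.9 RPKM against 42.6, 44.5 and 46.7 RPKM. The lowest DHC value was far above the highest control value (0.85 ± 0.06, adjusted p = 7.78e-05).

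Dhcr7, the last reductase on one route to cholesterol, was at 3.60, 3.89 and 3.002 RPKM in control and 3.96, 4.61 and 4.65 RPKM in DHC libraries. Every DHC value was above every control value, but the adjusted p was 0.0898 (0.27, interval 0.02 to 0.52). Tm7sf2, a sterol reductase that acts just after Cyp51, was at 1.15, 1.65 and 1.47 RPKM against 1.75, 1.504 and 1.04 RPKM (−0.00, interval −0.35 to 0.35, adjusted p = 0.997). The lowest and the highest of its 6 values both came from DHC libraries, and the sign reversed without control replicate 2 (0.07), control replicate 3 (0.02) or DHC replicate 3 (0.12). Of its 2273 exon bases 469 are shared with Vps51 on the same strand, so its value is uncertain. Lbr, the lamin B receptor, carries the same reductase activity and is outside the list of members. It was at 71.7, 79.97 and 71.4 RPKM in control and 50.9, 51.2 and 53.4 RPKM in DHC libraries, and it fell (−0.51 ± 0.06, adjusted p = 0.000518). This step was therefore covered by a low gene whose difference did not pass and an abundant gene that fell.

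Among the control genes the INSIG paralogs parted. Insig1 (chromosome 4, 342302 to 350515) was at 37.3, 36.1 and 43.1 RPKM in control and 78.8, 87.9 and 90.7 RPKM in DHC libraries. Each DHC value was well above each control value (1.12 ± 0.08, adjusted p = 7.2e-05). Insig2, whose transcript is not a typical SREBP target, was at 4.76, 4.09 and 5.49 RPKM against 5.24, 4.38 and 5.05 RPKM. Its groups overlapped and its difference was 0.03 (interval −0.23 to 0.29, adjusted p = 0.853). The sign of this difference reversed under both scaling alternatives, with limma-voom, without control replicate 2, without DHC replicate 1 and without both libraries numbered 1. The intervals of the INSIG genes did not overlap, but the difference between the genes' responses was not itself tested.

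The genes of the SREBPs and of their escort did not pass the test. Srebf1 was at 6.55, 7.09 and 7.20 RPKM in control and 6.29, 6.24 and 6.70 RPKM in DHC libraries (−0.10, interval −0.27 to 0.07, adjusted p = 0.314). Of its 4435 exon bases 588 are shared with Rai1 on the other strand. Srebf2, whose product acts mainly on sterol genes, was at 15.05, 18.0 and 17.9 RPKM against 16.9, 17.4 and 17.7 RPKM. Its DHC values lay inside the control range (0.03, interval −0.15 to 0.21, adjusted p = 0.782), and the sign reversed under both scaling alternatives, with limma-voom, without control replicate 1 and without both libraries numbered 1. Scap was at 9.05, 10.6 and 10.5 RPKM against 10.99, 11.4 and 11.02 RPKM, separate but close (0.14, interval −0.04 to 0.31, adjusted p = 0.195). It shares 127 of 4277 exon bases with an unnamed gene on the other strand. Stard4, a cytosolic carrier of sterol and an SREBP target, was at 53.2, 54.2 and 59.5 RPKM against 69.3, 68.5 and 70.1 RPKM. It rose 1.25-fold with DHC values in a narrow band (0.31 ± 0.05, adjusted p = 0.00377).

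**Figure D3:**
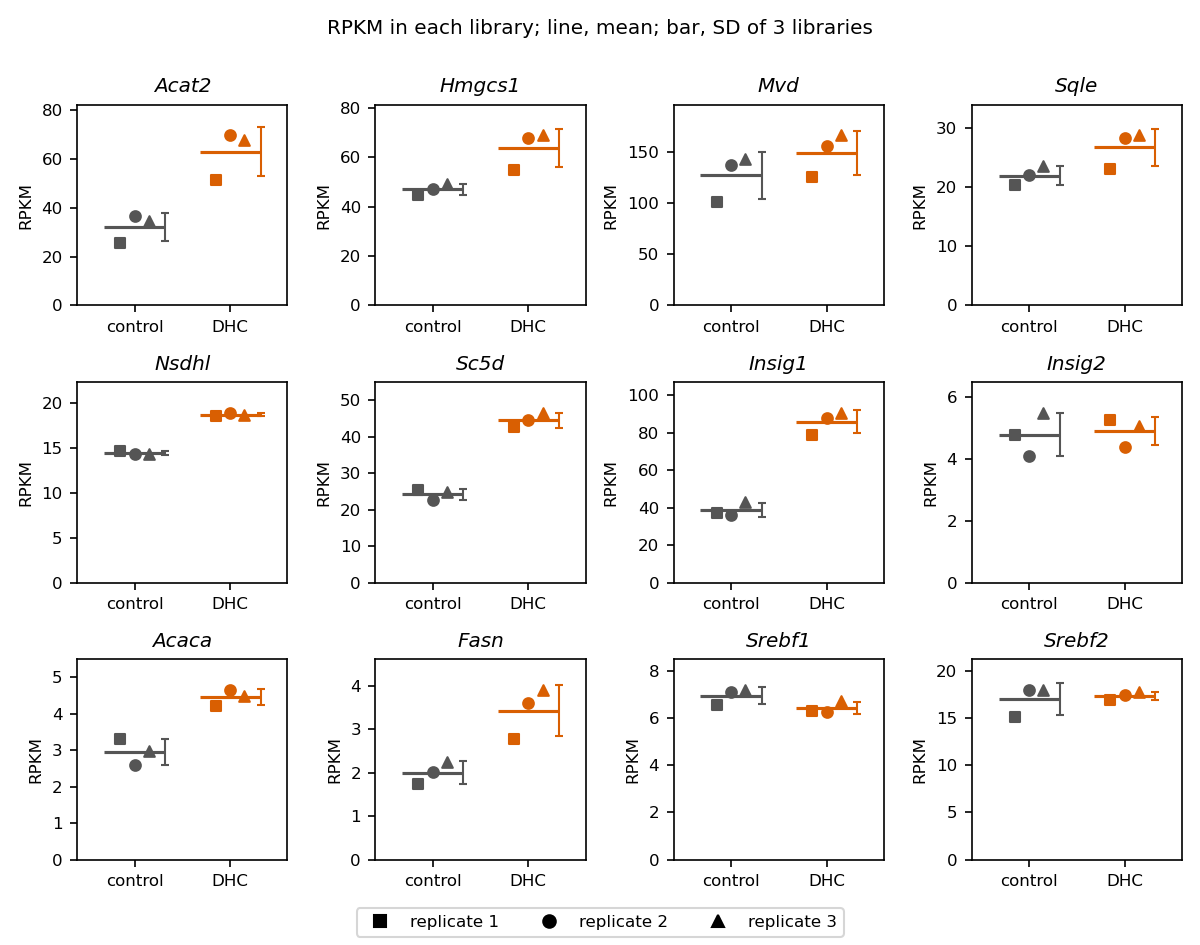
RPKM of 12 members in each of the 6 libraries (y axes start at 0), with squares, circles and triangles for replicates 1, 2 and 3, lines for group means and bars for the SD over 3 libraries. Insig1, Sc5d and Acat2 separate widely, and Insig2, Srebf1 and Srebf2 do not. The squares of Acat2, Hmgcs1, Mvd, Sqle, Fasn and Srebf2 sit lowest in both groups.

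In the fatty acid arm 4 of 5 genes rose. Acly was at 262, 303 and 308 RPKM in control and 327, 365 and 387 RPKM in DHC libraries, separate by a small margin (0.31 ± 0.08, adjusted p = 0.0252). Acaca, acetyl-CoA carboxylase (chromosome 10, 71536533 to 71719910), was at 3.31, 2.60 and 2.96 RPKM against 4.21, 4.65 and 4.49 RPKM (0.46 ± 0.10, adjusted p = 0.00954). Fasn, fatty acid synthase (chromosome 10, 109987735 to 110005901), was at 1.73, 2.02 and 2.25 RPKM against 2.76, 3.60 and 3.91 RPKM. Its groups did not overlap, and both its own rise and that of Acaca are understated on a scale with 1 added to each value (Fasn 0.55 ± 0.13, adjusted p = 0.015). Scd, a stearoyl-CoA desaturase, was at 32.6, 36.6 and 37.4 RPKM against 39.4, 43.7 and 44.6 RPKM (0.25 ± 0.07, adjusted p = 0.0298). Its paralog Scd2, no member, stood higher, at 111 ± 6.18 and 168 ± 11.5 RPKM, and rose 1.51-fold. Reads of such paralogs can be split between them, so both values are uncertain. Elovl6, the elongase that follows Fasn, was at 4.33, 3.83 and 3.84 RPKM against 3.55, 4.19 and 3.45 RPKM, with overlap (−0.08, interval −0.31 to 0.14, adjusted p = 0.544).

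The calls of this arm were the least stable of the 4 roles. Of 4 calls, 2 were left without control replicate 1, and 1, Acaca, without DHC replicate 2 or without DHC replicate 3. Without these libraries in turn, Acly had adjusted p = 0.0543, 0.0809 and 0.0773, and Scd 0.0666, 0.0989 and 0.0928. Without control replicate 2 Scd had 0.0563. Fasn passed without control replicate 1 and had 0.0566 without DHC replicate 2 and 0.0516 without DHC replicate 3. Under scaling by trimmed means Acly had 0.0748 and Scd 0.0983.

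Summed over the members of a role, the order of the libraries was much the same in each. The 8 early genes summed to 506, 606 and 605 RPKM in control libraries 1, 2 and 3 and to 621, 718 and 726 RPKM in DHC libraries. The 10 later sterol genes summed to 246, 259 and 267 RPKM against 315, 358 and 361 RPKM. The 6 control and transport genes summed to 126, 130.1 and 144 RPKM against 187, 196 and 201 RPKM, and the 5 fatty acid synthesis genes to 304, 348 and 354 RPKM against 377, 421 and 444 RPKM. In each of these sums library 1 was the lowest of its group, but abundant genes weigh most in a sum, as Acly does in that of fatty acid synthesis. Gene by gene, library 1 was the lowest in both groups for 15 of the 29 members (51.7%), against 17.4% of all genes tested. It was so for 6 of 8 early genes, among them Acat2, Mvd and Pmvk. The same held for 4 of 10 later sterol genes, 2 of 6 control and transport genes and 3 of 5 fatty acid synthesis genes. Library 1 was the highest in both groups for 1 member, Ggps1, against 22.7% of all genes. The second principal component of all genes, with 12.8% of the variance, likewise put control library 1 and DHC library 1 at one end. Without both of them 19 members rose, against 16.4% of all genes, as Mvd, Fdft1 and Sqle were added to the 16. What the libraries numbered 1 share is not given in the labels, and its part in the members' levels was not tested.

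Genes around the pathway, in 6 lists drawn up by role, held both rises and falls in 4 of the lists, read against 18.4% higher and 16.1% lower among all genes, or 12.0% and 19.8% with trimmed means. Their counts moved with the libraries left out, and the lowest and highest counts are given. Of 14 tested genes of SREBP processing and sterol-regulated degradation 2 rose and 2 fell, and under scaling by trimmed means 0 rose and 4 fell. Leaving out each library in turn left 0 to 1 higher and 0 to 2 lower, with 0 of each without DHC replicate 3. Rnf139, a ubiquitin ligase of the endoplasmic reticulum, fell 1.39-fold, but not at the threshold without DHC replicate 3 (adjusted p = 0.0562) or without both libraries numbered 1 (0.0795). Fbxw7, which marks nuclear SREBP for degradation, fell 1.21-fold, and its call ended without control replicate 2 (adjusted p = 0.0676) or 3 (0.0542) and without DHC replicate 2 (0.0717) or 3 (0.0648). Mbtps1, the protease that first cuts SREBP, was at 43.9 and 42.0 RPKM (adjusted p = 0.327).

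Of 12 tested genes of other sterol steps and of the isoprenoid branches 4 rose and 2 fell, or 2 rose and 3 fell with trimmed means, with 2 to 3 higher and 1 to 3 lower when each library was left out. Besides Lbr, given above, the lowest p belonged to Pdss1, which makes the tail of coenzyme Q, at 4.19 ± 0.118 and 7.80 ± 0.230 RPKM (limma adjusted p = 0.00022). Of 20 genes of sterol transport and esterification 4 rose and 4 fell, shares near the 18.4% and 16.1% of all genes, or 3 rose and 5 fell with trimmed means, with 1 to 4 higher and 2 to 3 lower when each library was left out, the fewest without DHC replicate 2. Gramd1b, which moves cholesterol from the plasma membrane to the endoplasmic reticulum, fell 2.69-fold from 32.8 ± 3.64 RPKM (adjusted p = 0.000564), Lrp8, a lipoprotein receptor, fell 1.29-fold (0.00313) and Osbp, an oxysterol-binding protein, rose 1.19-fold (0.00602). Of 13 listed liver X receptor genes and targets 5 were tested, 3 rose and 0 fell, and 2 to 3 rose with each library left out and 3 with trimmed means. The number lower was 0 at an unadjusted p under 0.05 and with limma-voom too. Those that rose were Mylip, a ligase that degrades lipoprotein receptors (1.63-fold, limma adjusted p = 0.001165), the receptor partner Rxrb (1.31-fold, 0.008615) and the exporter Abcg1 (1.42-fold, 0.0202). The Abcg1 call ended with no filter on low values (0.0511) and without control replicate 2 (0.0568) or 3 (0.0617) and without DHC replicate 2 (0.0740) or 3 (0.0626). Abca1, the other main exporter, was below the filter at 0.195 and 0.210 RPKM.

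Of 26 further genes of fatty acid and glycerolipid synthesis 7 rose and 3 fell. With trimmed means 3 were higher and 4 lower. With each library left out 3 to 6 rose, the fewest without DHC replicate 2, and 3 fell. Mid1ip1, an activator of acetyl-CoA carboxylase, fell from 154 ± 4.65 to 91.0 ± 7.08 RPKM (limma adjusted p = 0.000129), opposite in direction to Acaca. Pcyt1a, which controls phosphatidylcholine synthesis, fell 1.83-fold (0.0004), and Scd2 rose as given above (0.000473). Of 17 genes of fatty acid oxidation 4 rose and 0 fell, a share of 23.5% against 18.4% of all genes, with 2 to 4 higher and 0 to 1 lower when each library was left out, and 2 higher and 1 lower with trimmed means. The number lower at an unadjusted p under 0.05 was 1, Ppard, and limma-voom called 1 lower. Cpt2, which releases acyl groups in mitochondria, rose 1.76-fold (0.0031), Acadm 1.16-fold (0.00953) and Hadh 1.20-fold (0.0231). The Hadh call ended with trimmed means (0.0729), with median-of-ratios factors (0.0600), with limma-voom (0.0858), without control replicate 1 (0.0515) or 3 (0.0518), and without DHC replicate 2 (0.0757) or 3 (0.0730).

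**Figure D4:**
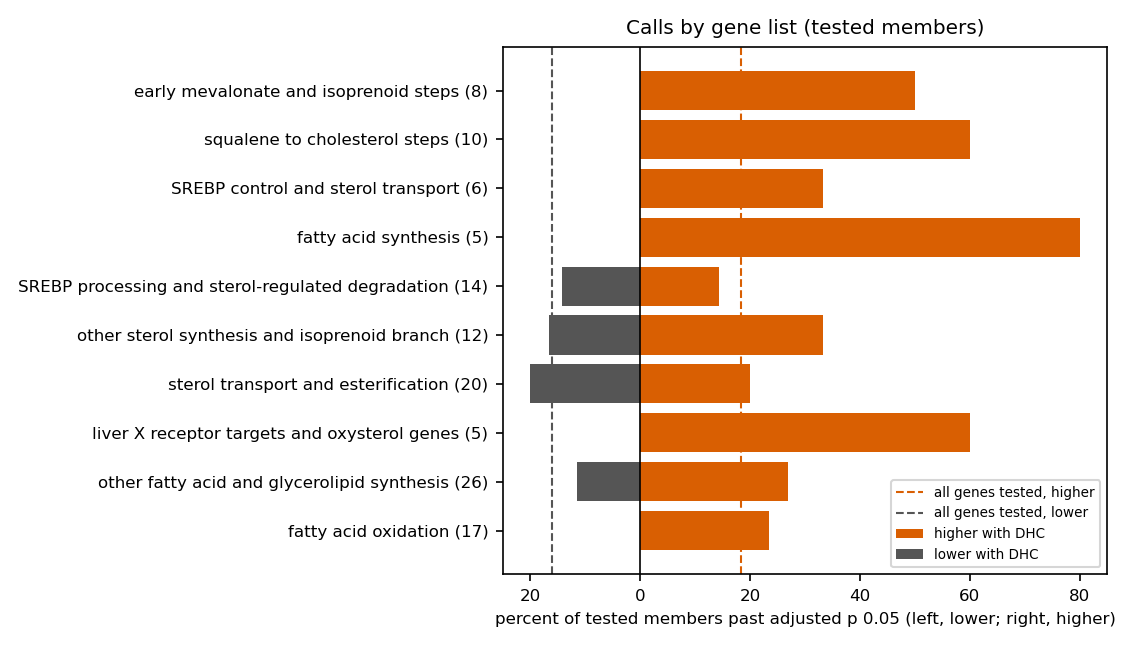
Percent of the tested members of each gene list (number tested in brackets) that passed an adjusted p of 0.05 as higher (right, orange) or lower (left, grey) with DHC; dashed lines mark the same shares over all 10667 genes tested, 18.4% and 16.1%. The 4 upper bars, the roles of the member list, extend only to the right, as do those of the liver X receptor and fatty acid oxidation lists.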

How the data were processed

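RNA-seq of 6 libraries, 3 control and 3 DHC, was used. The submitters' processing notes name the build Rnor_6.0, the trimmer Trimmomatic (0.36), featureCounts, Subread (1.5.1) and edgeR (3.12.1). No aligner, annotation release or strand setting was found in the labels or headers. The deposited table gives, per the file headers, gene symbols, exon positions, exon length and 1 value per library. Those values were taken as RPKM as made by the authors: multiplied by length they fell on whole reads in 100% of cases (tolerance 0.01 read), from which reads and totals were recovered. RPKM corrects for the library total only, and depends on the exon length chosen.

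Genes averaging 1 RPKM or more over the libraries were fitted with limma 3.58.1 (R 4.3.3) on log2(RPKM + 1), with a trended variance and group as the only term, adjusted by Benjamini-Hochberg over 10667 genes at a threshold of 0.05. Values after a plus-minus sign are SD for RPKM and SE for log2 differences. N-fold is a ratio of mean RPKM, and log2(RPKM + 1) understates changes of low genes. Scripts were tested on simulated data. The members and gene lists were chosen with earlier results of these data known. All members are named, and from each other list up to 3 genes of lowest p past the threshold, apart from some that are not reported here; Mbtps1, Abca1 and Ppard were chosen after their values were seen. So were the promoter windows printed and the motifs other than TCACNCCAC, since the planned rule, a TCACNCCAC match, found no member. Alternatives were other scalings, pseudocounts and filters, limma-voom, robust variance, a replicate block, a stricter threshold and leaving out libraries.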

Additional observations from a re-analysis of the deposited data

How the results depend on the processing

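Over 17 alternative settings, or 16 for the 7 members below the 5 RPKM filter, 21 of the 29 members kept their side of the threshold and 16 kept both side and sign. The others were 5 that lost a call somewhere (Pmvk, Lss, Acly, Fasn, Scd), 3 that gained one (Mvd, Fdft1, Sqle) and 5 never called whose sign reversed. Among all genes tested 1968 rose and 1717 fell. Scaled by trimmed means 1285 rose, and at an adjusted p below 0.01 873 rose and 1076 fell. Leaving out each library gave 1201 to 1746 higher and 1275 to 1609 lower. Of the members 10 rose at an adjusted p below 0.01 and 11 to 18 with each library left out. The fatty acid synthesis count, 4, was 2 with trimmed means, with median-of-ratios factors, with no filter on low values and with a filter at 5 RPKM, which leaves Acaca, Fasn and Elovl6 untested, 1 at an adjusted p below 0.01, and 1 to 4 with each library left out. Beyond the filters, which change which genes are tested, the cause was not tested.

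The difference of Srebf2 was −0.031 with trimmed means, −0.022 with median-of-ratios factors, −0.034 with limma-voom, −0.031 without both libraries numbered 1 and −0.031 with a replicate block and trimmed means together, and −0.049 to 0.073 with each library left out. That of Insig2 was −0.024, −0.016, −0.041, −0.011 and −0.024 in the same settings, and −0.057 to 0.12 with each library left out. With each library left out Fdps ranged from −0.0043 to 0.11, Ggps1 from −0.18 to 0.0099 and Tm7sf2 from −0.095 to 0.12.

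Libraries with the same replicate number did not all deviate together (correlations 0.228, −0.0495 and 0.0828 for replicates 1, 2 and 3), and control replicate 2 correlated best with DHC replicate 3. On the second principal component, however, replicates 1, 2 and 3 stood in the same order in both groups. Their positions were 12.1, −2.49 and −10.7 in control and 11.5, −2.15 and −8.35 with DHC. The labels state no block, so the numbers were not taken as pairs, but a shared structure by replicate number is not excluded. With a replicate block 18 members rose, among them Mvd (adjusted p = 0.00584) and Sqle (0.0129), and 2426 of all genes. With the block and trimmed means, chosen after seeing the data, 17 rose. Counts of 69 to 118 reads limit Tm7sf2.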
